A study of Mus musculus with 6 samples.

Results

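Interferon-stimulated genes were examined in RNA-seq libraries of CD8+ T cells taken from mouse spleen. The 33 genes were chosen by symbol, from a list of well-known interferon targets, among 35458 gene identifiers, and all 33 were found. They form 3 groups: 13 antiviral genes that are classical targets of type I interferon (Ifit, Oas and Mx family members, Isg15 and Usp18), 7 GTPases induced by interferon gamma (Gbp2, Gbp3, Gbp7, Ifi47, Igtp, Irgm1 and Iigp1), and 13 other members. A total of 31 members passed a filter of at least 1 FPKM (fragments corrected for gene length and library depth) in at least 3 libraries, which 13956 genes passed in all. Mx2 and Ifi44 did not pass it.

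The 3 control libraries came from Cd4cre mice and the 3 knockout (KO) libraries from Cd4cre mice with floxed Glut10 alleles (Cd4creGlut10fl/fl), so Cre was present in both groups. Cd4cre acts in developing T cells and is therefore not specific to the CD8+ lineage. Glut10 is the hexose transporter encoded by Slc2a10. The labels give no age, sex, strain or treatment, and the cells were frozen before RNA was taken. Lymphoma appears in the title of the series, but no label ties a library to a tumour. Nothing says that replicates are separate animals, so each p-value reflects library-to-library spread that may be technical only. Where 3 values are listed per group, they stand in the order of libraries 1, 2 and 3, first the controls and then KO.

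Type I interferons signal through the receptor chains IFNAR1 and IFNAR2 to a complex that contains STAT2 and IRF9 and binds interferon-stimulated response elements (ISRE) in promoters. Interferon gamma, secreted mainly by activated T cells and NK cells, signals through IFNGR1 and IFNGR2 to gamma-activated sites (GAS) in promoters and induces IRF1, a factor that binds ISRE-like elements. The guanylate-binding proteins (Gbp) and the immunity-related GTPases (Irgm1, Igtp, Iigp1, Ifi47) attack vacuoles that hold intracellular pathogens, while IFIT, OAS and MX proteins act on viral RNA or viral particles.

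Promoter stretches from both groups are shown because ISRE and GAS are the elements through which these genes are known to respond. RefSeq promoters (GRCm38.p6, 250 bases before to 50 after the start) matched 26 of the 33 members, 9 of them type I antiviral genes and 6 of them GTPases. Mx1, Mx2, Oas2, Usp18, Rtp4, Zbp1 and Iigp1 had no entry. ISRE was searched on both strands as TTTC, any 2 bases, TTTC, and GAS as TTCNNNGAA, which reads the same on both strands. Capitals mark the matched letters, and neighbouring ISRE matches that overlap each other are merged in Isg15 and Irgm1. A match on the opposite strand reads GAAA, any 2 bases, GAAA. In Gbp7 the first 2 capital runs are GAS and the last is ISRE, and in Igtp the first is GAS and the second is ISRE. Each stretch lies before the start of the gene and is written 5′ to 3′ on the strand of the gene, with Isg15 and Irgm1 on the minus strand and the others on the plus strand.
Ifit1, chr19:34640779-34640819: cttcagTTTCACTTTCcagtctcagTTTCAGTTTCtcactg
Ifit3, chr19:34583367-34583422: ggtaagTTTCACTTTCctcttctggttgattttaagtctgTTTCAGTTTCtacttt
Isg15, chr4:156200869-156200902: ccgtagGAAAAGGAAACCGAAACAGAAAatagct
Gbp2, chr3:142620597-142620619: cttttagTTTCACTTTCactgtc
Gbp7, chr3:142530224-142530298: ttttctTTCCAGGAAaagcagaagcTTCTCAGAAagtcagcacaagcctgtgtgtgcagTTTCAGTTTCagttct
Igtp, chr11:58199505-58199537: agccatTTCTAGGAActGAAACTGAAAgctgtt
Irgm1, chr11:48871429-48871456: tttcaaGAAATAGAAACCGAAActgatt

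ISRE letters were present in 17 of the 26 matched members (65.4%), against 3.99% of 27025 genes in the promoter table. The share was 6 of 9 among type I antiviral genes, 5 of 6 among GTPases and 6 of 11 among the other members, so most matched genes of each group had these letters. GAS letters were present in 6 of 26 members (23.1%), against 9.55% of all genes, and were found in 2 of 9 type I antiviral genes and 2 of 6 GTPases. Both were present in 4 of 26 members (15.4%), against 0.540% of all genes: 2 of 6 GTPases (Gbp7 and Igtp), 1 of 9 type I antiviral genes (Oas1a) and 1 of 11 other members (Bst2). An ISRE match overlapped a GAS match in 1 member, Bst2. ISRE matches overlapped each other in Isg15, Irgm1, Gbp3, Oas1a and Bst2. A match describes letters in this window and says nothing of binding.

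The libraries differed from each other within groups. The FPKM values implied totals of 11840625 to 15036237 fragments in the controls and in KO 2, but 3420288 in KO 1 and 3004537 in KO 3. Of 812 odorant and pheromone receptor genes (olfactory and vomeronasal), which T cells have no known use for, 17.0% in KO 1 and 18.7% in KO 3 reached 1 FPKM, against at most 1.72% in the other 4 libraries. The 15 T cell markers were detected in every library, with summed levels of 533 to 2036 FPKM in the controls, lowest in control 2 and 3, and 1993 to 3017 FPKM in KO. Cd8a, which defines the labelled lineage, was present throughout, at 191, 30.3 and 31.8 FPKM in the controls, against 101, 252 and 90.7 FPKM in KO. No neutrophil marker of 12 was at 0 in all libraries, 6 reached 1 FPKM in every one, and their summed levels were 439, 16772 and 29297 FPKM in the controls, against 72.3 to 706 FPKM in KO. The sums of 7 erythroid markers were 2213 and 1010 FPKM in control 2 and 3, against 3.33 to 35.3 FPKM elsewhere. In bulk RNA, fewer cells of a type and less RNA per cell cannot be told apart. The targeted gene, Slc2a10, had 4, 2 and 2 implied reads in control 1, 2 and 3 and 0 in each KO library, too few to check the deletion.

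Across the genotypes, no interferon-stimulated gene passed the test. With limma on log2(FPKM + 1), 0 of 31 tested members and 0 of 13956 genes (0%) had an adjusted p under 0.05, and limma-voom on implied reads also called 0. At an unadjusted p under 0.05, limma gave 4 members, 3 higher in KO (Usp18, Xaf1 and Ifit2) and 1 lower (Oas1a), where 5.33% of all tested genes were higher and 6.46% lower. limma-voom gave 6 members at that level and 1413 genes, against 1646 genes with limma. Estimates were higher in KO for 25 of the 31 members, against 56.9% of all tested genes, and lower for 6, against 43.1%, and the median log2 difference was 0.59, against 0.10. After quantile normalization, which moved the median of all genes to -0.12, 20 members were higher, against 42.2% of all genes. With control 2 and 3 left out, 9 were higher, against 44.9% of all genes, and with KO 2 left out, 17 were higher, against 54.2%. Control 2 and 3 held the most neutrophil and the least T cell marker RNA, and the part of this in the members' estimates was not tested. In 2 members, Usp18 and Xaf1, every KO library lay above every control (6.70% of all tested genes), and in 3, Oas1a, Oasl2 and Isg20, every KO library lay below (9.44%). For Oasl2 this was fixed by the filter, which it passed only through the controls. All log2 differences here are on the log2(FPKM + 1) scale and understate changes of low genes.

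**Figure D1:**
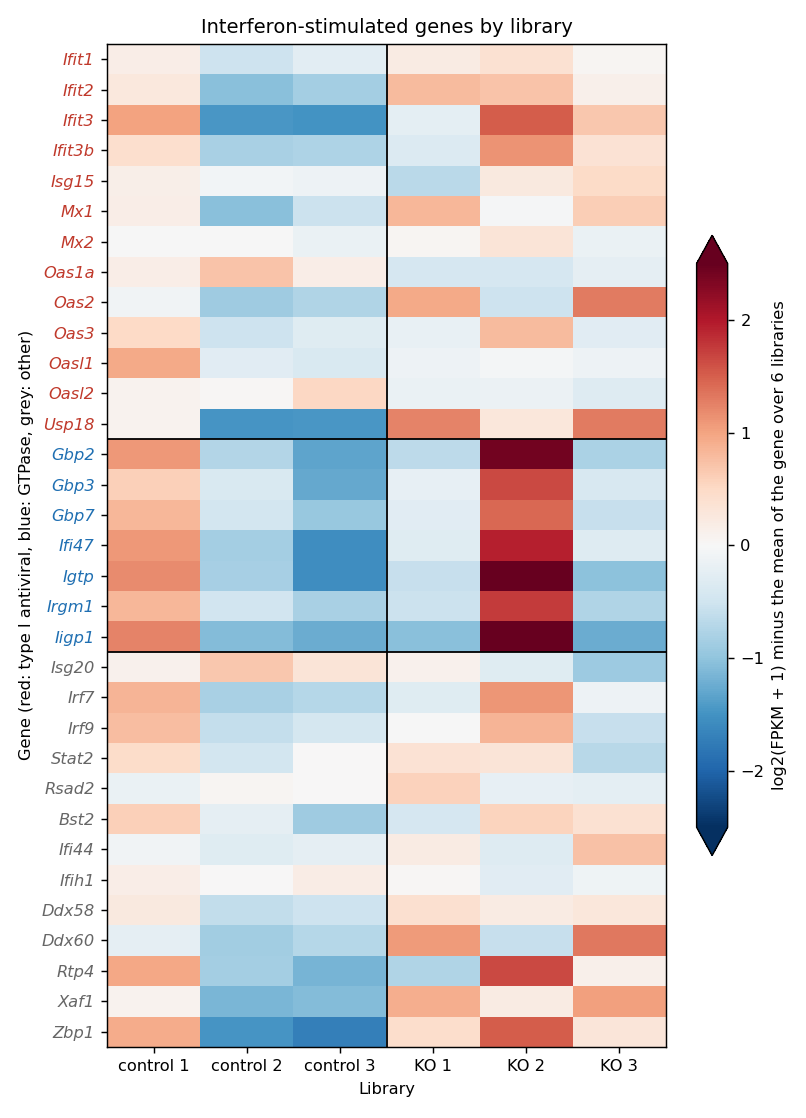
Heat map of the 33 interferon-stimulated genes (rows, 3 groups) in the 6 libraries (columns). Colour is log2(FPKM + 1) minus the mean of that gene over the 6 libraries, red above and blue below. The 7 GTPases are high in control 1 and KO 2, while Usp18, Oas2, Ddx60 and Xaf1 are highest in KO 1 and KO 3.

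The GTPases differed far more between libraries of 1 genotype than between genotypes. Igtp, a regulatory member of the immunity-related GTPases, measured 83.5, 20.0 and 11.8 FPKM in the controls, against 23.9, 261 and 17.3 FPKM in KO. Iigp1, an effector that loads onto parasite vacuoles, measured 9.36, 1.07 and 0.852 FPKM and 1.12, 43.4 and 0.853 FPKM. KO 2 was the highest library and control 1 the second for both, and the groups overlapped. The level of Iigp1 in KO 2 was 38.6 times that in KO 1 and 50.9 times that in KO 3, which rest on 22 and 15 implied reads against 3715.

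Gbp2, a guanylate-binding protein, measured 56.2, 15.3 and 9.81 FPKM in the controls, against 16.2, 144 and 14.7 FPKM in KO. Ifi47, also an immunity-related GTPase, measured 83.9, 21.4 and 12.8 FPKM and 31.6, 153 and 31.4 FPKM. Irgm1, which keeps other members of the family inactive on host membranes, measured 20.8, 7.72 and 5.98 FPKM and 7.40, 40.0 and 6.30 FPKM. The same order held for these genes: control 1 and KO 2 lay above the other 4 libraries. Gbp3 measured 15.6, 7.38 and 3.52 FPKM and 8.51, 33.6 and 7.34 FPKM. Gbp7 measured 8.76, 2.99 and 1.85 FPKM and 3.49, 13.9 and 2.67 FPKM.

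All 7 GTPases had this order, which 14.5% of all tested genes and 15.5% of protein-coding ones also had. It was chosen for description after the values were seen. Gbp2, Gbp3 and Gbp7 are neighbours on chromosome 3, and Igtp overlaps Irgm2 on the same strand, which measured 20.3, 5.48 and 5.12 FPKM in the controls, against 4.60, 44.0 and 5.59 FPKM in KO. Since the members are similar in sequence and the counting of shared reads is not given in the sources used here, single values of the family are uncertain. KO 2 exceeded KO 1 by 3.95 times (Gbp3) to 38.6 times (Iigp1), and control 1 exceeded control 2 by 2.11 times (Gbp3) to 8.78 times (Iigp1).

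Between genotypes, the log2 difference of the GTPases ranged from 0.31 (SE 0.77, Irgm1) to 0.88 (SE 0.87, Ifi47), with a median of 0.71 and limma adjusted p of 0.616 to 0.859. The SE exceeded the estimate for 5 of the 7 genes, all but Gbp3 and Ifi47. With 1 library left out, the median was -0.40 without KO 2, where 2 of 7 estimates were higher, 0.22 and 0.45 without control 3 and control 2, and 1.14, 1.21 and 1.35 without KO 1, KO 3 and control 1. After quantile normalization 6 of 7 were higher. With control 2 and 3 left out, it was -0.68 and 0 of 7 were higher. With KO 1 and 3 left out, it was 2.38, with 1 library in that group assumed to vary like the others.

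**Figure D2:**
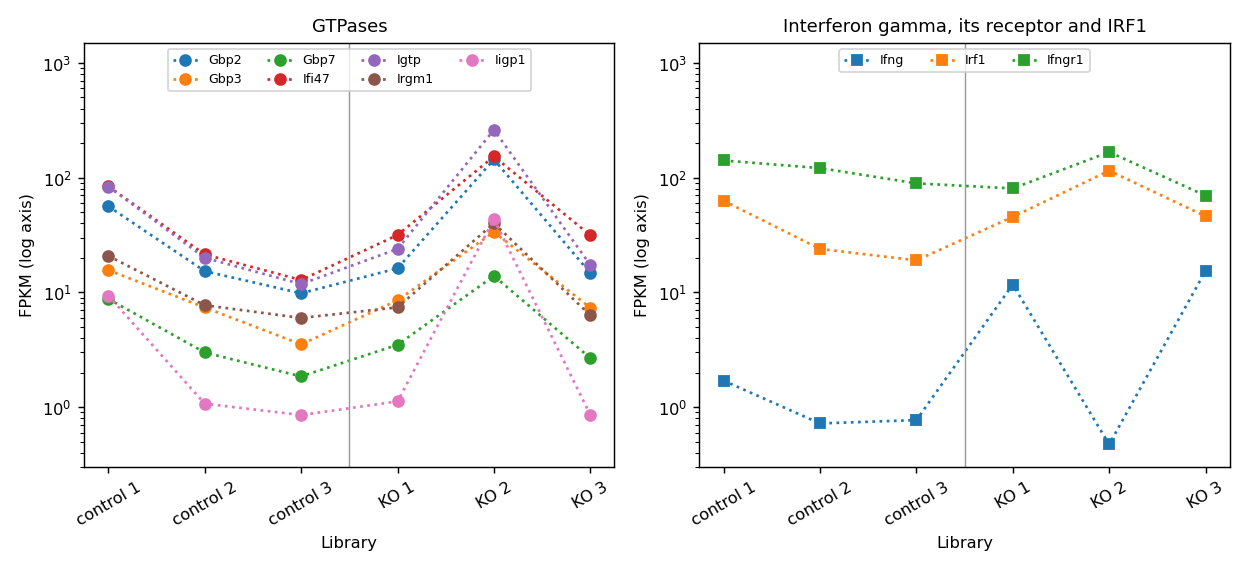
FPKM on a log axis in each library, for the 7 GTPases (left) and for Ifng, Irf1 and Ifngr1 (right). Each point is 1 library, and dotted lines only join the values of a gene. GTPases peak in KO 2, where Ifng has its lowest value, 0.473 FPKM, from 9 implied reads against 14 and 15 in control 2 and 3.

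T cell markers moved with the GTPases in part. The mean log2(FPKM + 1) of the 7 GTPases was 4.83, 3.16 and 2.61 in the controls, against 3.33, 6.05 and 3.12 in KO. That of the 15 T cell markers was 6.80, 5.23 and 4.93 in the controls and 6.71, 7.29 and 6.52 in KO. The GTPase mean minus the T cell mean was -1.97, -2.06 and -2.31 in the controls, -1.24 in KO 2, and -3.38 and -3.40 in KO 1 and KO 3. The 3 controls were thus close to each other on this difference, KO 2 lay above them and KO 1 and KO 3 below. Its KO mean minus its control mean was -0.56, opposite in sign to the 0.63 of the GTPase mean itself. The part of cell makeup in these levels was not tested.

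The type I antiviral genes did not share 1 pattern. Their mean log2(FPKM + 1) was 2.05, 1.19 and 1.26 in the controls, against 1.90, 2.08 and 2.04 in KO, so control 2 and 3 were low and the other 4 libraries lay close together. The mean was 1.5 ± 0.48 in the controls and 2.01 ± 0.09 in KO (SD, n = 3 each). The SD of the GTPases was 1.15 and 1.63 on the same scale. These are SDs of means, and the type I antiviral mean averages genes with different orders of libraries. Single genes also varied: control 1 over control 2 ran from 0.658 times (Oas1a) to 43.1 times (Ifit3b, 34 against 1 implied reads). For the GTPases it ran from 2.11 times (Gbp3) to 8.78 times (Iigp1). KO 2 over KO 1 ran from 0.226 times (Oas2) to 6.68 times (Ifit3b), against 3.95 times (Gbp3) to 38.6 times (Iigp1) for the GTPases. The SE of the log2 difference was 0.27 to 0.81 for tested type I antiviral genes and 0.70 to 1.37 for GTPases, on a scale that compresses low genes. Of 12 tested genes, 9 had higher estimates, with a median log2 difference of 0.59, against 56.9% and 0.10 over all tested genes. The T cell marker mean was also higher in KO, by 1.19 on the log2 scale. The type I antiviral mean minus the T cell marker mean was -4.75, -4.04 and -3.67 in the controls, against -4.81, -5.21 and -4.48 in KO. On this difference KO was lower by the group means (-0.68), opposite in sign to the 0.51 of the type I antiviral mean itself, and the groups overlapped. The part of T cell content in these estimates was not tested. With control 2 and 3 left out, 5 of 12 were higher and the median was -0.09. The median was 0.36 without KO 2 and 0.88 without control 1. Of the 13 genes, 4 (Ifit3, Ifit3b, Oas3 and Oasl1) had control 1 and KO 2 above the other 4 libraries, as the GTPases did, and 3 (Oas2, Mx1 and Usp18) had KO 1 and KO 3 above the other 4. The first order was held by 30.8% of the 13 genes, against 14.5% of all tested genes. The second was held by 23.1%, near the 24.2% of all tested genes.

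**Figure D3:**
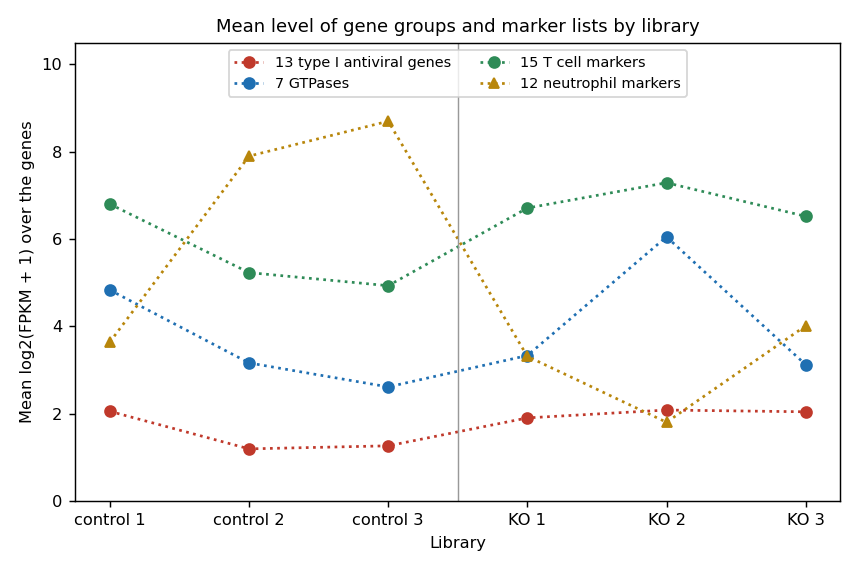
Mean log2(FPKM + 1) of 13 type I antiviral genes, 7 GTPases, 15 T cell markers and 12 neutrophil markers in each of the 6 libraries. The GTPases range from 2.61 to 6.05 and the type I antiviral genes from 1.19 to 2.08, and neutrophil markers are highest in control 2 and 3.

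Usp18, the protease that removes ISG15 from proteins and shuts down signalling at IFNAR2, measured 5.66, 1.24 and 1.29 FPKM in the controls, against 13.8, 6.62 and 14.4 FPKM in KO. Every KO library lay above every control, as for 6.70% of all tested genes. The means were 2.73 ± 2.54 and 11.6 ± 4.35 FPKM (SD, n = 3 each). The log2 difference was 1.89 (SE 0.54), with a limma adjusted p of 0.417. The limma adjusted p was 0.0410 without KO 2, the smallest over the alternatives, and 0.801 without control 3. In the fit without KO 2, 12.1% of all tested genes passed as higher in KO. The difference was 0.85 with control 2 and 3 left out. A noncoding gene on the opposite strand, Gm44148, overlaps Usp18 and measured at most 1.07 FPKM.

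Oas2, which makes the 2-5A signal that activates RNase L, measured 1.76, 0.583 and 0.732 FPKM in the controls, against 4.66, 1.06 and 6.21 FPKM in KO. Mx1, a dynamin-like GTPase that blocks influenza virus, measured 1.67, 0.146 and 0.638 FPKM and 3.21, 1.33 and 2.65 FPKM. In these genes, as in Usp18, KO 1 and KO 3 were the highest libraries, an order that 24.2% of all tested genes and 17.1% of protein-coding ones also had. These are the 2 libraries of low depth with odorant receptor reads, and the part of this in the values was not tested. Usp18 rests on 132 and 121 implied reads there and Mx1 on 42 and 30. The log2 difference was 1.16 (SE 0.54) for Oas2 and 0.94 (SE 0.42) for Mx1, both with a limma adjusted p of 0.417. For Oas2 it was 1.70 without KO 2 (limma adjusted p = 0.0254, against 0.801 without control 3). Without KO 2, 12.1% of all tested genes passed as higher in KO.

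The Ifit genes, whose products bind viral RNA, split by library. Ifit2 measured 8.19, 2.71 and 3.22 FPKM in the controls, against 12.3, 11.5 and 7.37 FPKM in KO, a log2 difference of 1.09 (SE 0.43, limma adjusted p = 0.417). Ifit3 measured 7.70, 0.572 and 0.534 FPKM and 2.68, 11.4 and 5.91 FPKM. Control 1 and the KO libraries thus stood above control 2 and 3. Its near copy Ifit3b measured 1.44, 0.0333 and 0.0665 FPKM and 0.439, 2.93 and 1.33 FPKM, and reads that fit both would leave either value uncertain. Ifit1 measured 1.59, 0.627 and 0.926 FPKM and 1.65, 2.00 and 1.38 FPKM. Control 2 and 3 were the lowest libraries for all 4 genes, while KO 2 was the highest for Ifit1, Ifit3 and Ifit3b. With control 2 and 3 left out, the difference of Ifit3 was -0.35, against 1.31 with all libraries.

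Lower values in KO were found in other OAS genes. Oas1a measured 7.98, 12.1 and 7.97 FPKM in the controls, against 4.96, 4.95 and 5.83 FPKM in KO, with every KO library below every control, as for 9.44% of all tested genes. Oasl2, an OAS-like protein, measured 1.086, 1.003 and 1.795 FPKM and 0.7339, 0.7693 and 0.5744 FPKM, also without overlap. Oasl2 passed the filter only through the controls, so its lack of overlap was fixed by the filter and carries no weight. Its values in KO 1 and KO 3 rest on 16 and 11 implied reads. The log2 differences of Oas1a and Oasl2 were -0.71 (SE 0.27) and -0.42 (SE 0.27), with limma adjusted p of 0.417 and 0.459. Oas1a belongs to a cluster of close copies, so its value is uncertain. Oas3 measured 2.71, 0.848 and 1.14 FPKM and 1.32, 3.60 and 1.18 FPKM, with control 1 and KO 2 highest.

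Oasl1, a repressor of Irf7 translation, measured 4.86, 1.51 and 1.35 FPKM in the controls, against 1.79, 1.96 and 1.79 FPKM in KO. An antisense gene, Gm13822, overlaps it and measured 7.70 FPKM in KO 3, and the strand setting is not given in the sources used here. Isg15, the ubiquitin-like modifier, measured 8.27, 6.96 and 6.69 FPKM and 4.25, 8.92 and 10.6 FPKM, and its difference of 0.03 (SE 0.36) was smaller than its error. Mx2 was near the floor, at 0 to 0.129 FPKM in the controls, against 0 to 0.415 FPKM in KO.

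The contrast of the 2 groups of genes followed single libraries. The mean of the type I antiviral genes minus that of the GTPases was -2.78, -1.98 and -1.35 in the controls, against -1.43, -3.97 and -1.08 in KO. KO 2 had the lowest value of all libraries, control 1 the next, and KO 1 lay between control 2 and 3 and KO 3 above them. The means were -2.04 ± 0.71 in the controls and -2.16 ± 1.57 in KO (SD, n = 3 each), a difference of -0.12 that was smaller than the spread in either group. It was 0.78 without KO 2 and -1.93 with KO 1 and 3 left out. With all libraries kept, a pseudocount of 0.1 turned its sign, to 0.16. The order of the median log2 differences also depended on the scale. They were 0.59 for the type I antiviral genes and 0.71 for the GTPases in the main fit. With the pseudocount of 0.1 they were 0.98 and 0.76, and with limma-voom 1.08 and 1.01.

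The factors that carry the interferon signal are themselves interferon-stimulated. Irf7, which amplifies type I interferon production, measured 9.30, 2.26 and 2.47 FPKM in the controls, against 3.64, 11.2 and 4.23 FPKM in KO. Irf9 measured 21.1, 7.49 and 8.54 FPKM and 11.8, 22.3 and 7.66 FPKM. Stat2, its partner, measured 12.3, 6.01 and 8.64 FPKM and 11.4, 11.1 and 4.94 FPKM. Irf7 and Irf9 had the order of the GTPases, with control 1 and KO 2 highest, and Stat2 did not. On the GENCODE map, Irf7 overlaps Phrf1 on the opposite strand and Irf9 overlaps Rnf31 on the same strand. Rnf31 measured 22.1, 7.72 and 10.6 FPKM and 18.1, 17.3 and 8.87 FPKM, so reads of the pair may be split.

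Zbp1, a sensor of Z-form nucleic acid that can start necroptosis, measured 19.7, 2.91 and 2.34 FPKM in the controls, against 13.8, 30.1 and 12.4 FPKM in KO, a log2 difference of 1.51 (SE 0.76, limma adjusted p = 0.419) that was -0.17 with control 2 and 3 left out. Rtp4, an interferon-induced chaperone of receptors, measured 7.73, 1.47 and 0.999 FPKM and 1.65, 13.1 and 3.90 FPKM. Bst2, the tetherin that holds budding virus on the cell surface, measured 84.2, 47.1 and 29.2 FPKM and 41.1, 81.2 and 72.2 FPKM. In these genes too, control 1 and KO 2 were the highest libraries. Bst2 is also a marker of plasmacytoid dendritic cells, whose 7 other markers summed to 16.4 to 26.3 FPKM in the controls, against 11.8 to 28.3 FPKM in KO, lowest in KO 2. These markers did not move together. Cox6a2 alone gave 19.4 and 7.63 FPKM of the sums in control 2 and 3, against 0.401 FPKM in KO 2. Siglech measured 0.0197 and 0.0393 FPKM in control 2 and 3 and 0.302 FPKM in KO 2, and Ccr9 0.130, 0.337 and 5.69 FPKM. The sums thus do not rank the content of these cells.

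Xaf1, a pro-apoptotic binding partner of XIAP, measured 4.56, 1.38 and 1.49 FPKM in the controls, against 8.92, 5.05 and 9.65 FPKM in KO, without overlap. Ddx60, a helicase that assists RIG-I, measured 2.21, 1.07 and 1.30 FPKM and 6.83, 1.52 and 8.39 FPKM. Ddx58, which encodes RIG-I itself, measured 9.58, 4.87 and 5.25 FPKM and 10.8, 9.34 and 9.82 FPKM. KO 1 and KO 3 were highest for Xaf1, Ddx60 and Ddx58, as they were for Ifi44, which measured 0.0978 to 0.289 FPKM in the controls, against 0.0889 to 1.25 FPKM in KO. The log2 difference was 1.43 (SE 0.45) for Xaf1 and 1.20 (SE 0.55) for Ddx60, each with a limma adjusted p of 0.417. Without KO 2, that of Ddx60 was 1.79 (limma adjusted p = 0.0125, up to 0.997 over the alternatives). In that fit 3 of 31 members passed, Usp18, Oas2 and Ddx60, or 9.68%, all higher in KO, while 12.1% of all tested genes passed as higher and 0.960% as lower.

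Isg20 had the lowest estimate of the members, and Ifih1 and Rsad2 overlapped between the groups. Isg20, an exonuclease that degrades single-stranded RNA, measured 6.448, 10.02 and 7.616 FPKM in the controls, against 6.445, 4.614 and 2.684 FPKM in KO, where the closest libraries of the groups, control 1 and KO 1, were nearly equal. Its log2 difference was -0.73 (SE 0.35, limma adjusted p = 0.417). Ifih1, the RNA sensor MDA5, measured 2.25, 1.90 and 2.29 FPKM and 1.93, 1.37 and 1.67 FPKM. Rsad2, which encodes viperin, measured 1.110, 1.428 and 1.365 FPKM and 2.495, 1.037 and 0.9981 FPKM, with KO 1 alone above the rest. The log2 difference was -0.25 (SE 0.26) for Ifih1 and 0.08 (SE 0.33) for Rsad2, neither larger than its error.

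**Figure D4:**
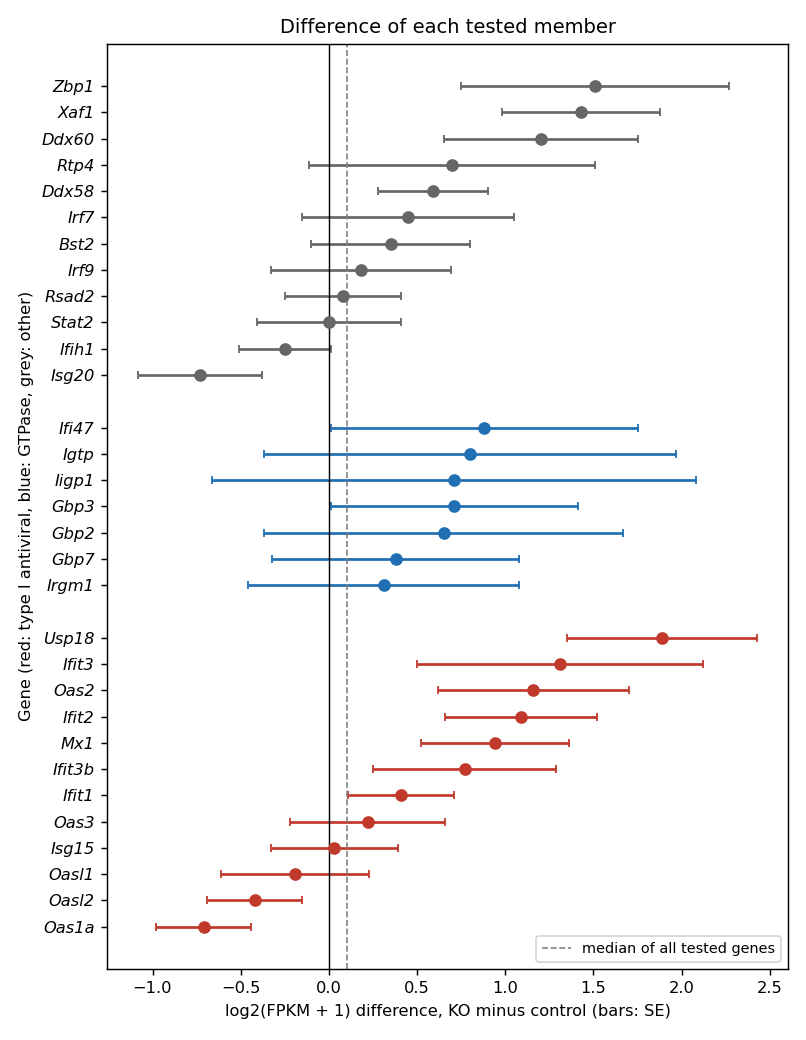
Log2(FPKM + 1) difference, KO minus control, of the 31 tested members with its SE (bars), by group, beside the median of all tested genes (dashed line, 0.10). Estimates run from -0.73 (Isg20) to 1.89 (Usp18), and the GTPases have wide errors.

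Among the ligands, Ifng did not follow the GTPases that its product induces. Ifng measured 1.70, 0.720 and 0.770 FPKM in the controls, against 11.7, 0.473 and 15.4 FPKM in KO. These values rest on 26, 14 and 15 implied reads in the controls and 52, 9 and 60 in KO. KO 2, with the most GTPase RNA, had the least Ifng, but its 9 reads are too few to set it apart from control 2 and 3. KO 1 and KO 3, with the most Ifng, had a GTPase mean of 3.33 and 3.12 on the log2 scale, against 3.16 and 2.61 in control 2 and 3. The log2 difference was 1.74 (SE 0.92, limma adjusted p = 0.421), and 2.84 without KO 2 (limma adjusted p = 0.00260). Without KO 2, 12.1% of all tested genes passed as higher in KO. With limma-voom on all libraries the adjusted p was 0.876. With KO 1 and 3 left out the log2 difference was -0.45. An order with KO 1 and KO 3 above the other 4 libraries was shared by 24.2% of all tested genes, and these are the low-depth libraries in which 17.0% and 18.7% of the odorant and pheromone receptor genes reached 1 FPKM. The part of this in the Ifng values was not tested. Ifnb1, Ifna4, Ifnk, Ifnl2 and Ifnl3 had at most 4 implied reads in any library, too few to compare, and the other entries of the ligand list are not analysed here.

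The receptor chains were expressed in every library. Ifngr1 measured 141, 121 and 89.1 FPKM in the controls, against 80.5, 167 and 69.7 FPKM in KO, and was highest in KO 2. Ifngr2 measured 20.3, 23.0 and 27.7 FPKM and 28.5, 12.5 and 30.9 FPKM, and was lowest in KO 2. Ifnar1 measured 16.7 to 26.4 FPKM over the controls and 16.1 to 26.4 FPKM over KO, and Ifnar2 21.9 to 23.5 FPKM and 15.8 to 28.0 FPKM. No receptor chain differed between genotypes by more than its error.

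Irf1, a transcription factor that interferon gamma induces, measured 62.9, 23.9 and 19.0 FPKM in the controls, against 45.5, 115 and 46.0 FPKM in KO. It was highest in KO 2, as the GTPases were, and KO 1 and KO 3 lay above control 2 and 3, as for Ifi47 but not for Igtp, Gbp2 or Irgm1. Jak1, a kinase of all these receptors, measured 97.1 ± 41.1 and 138 ± 31.3 FPKM (SD, n = 3 each). Of the 9 receptor and JAK-STAT genes tested, 5 had higher and 4 lower estimates, with a median of 0.03, and 0 passed. Estimates were higher for 56.9% of all tested genes, with a median of 0.10.

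Genes outside the 33 were taken from lists of the same pathway. Of 23 other interferon-gamma induced genes tested, 22 had higher estimates in KO and 1, Cd274, a lower one, with a median of 0.75, and 0 passed over all genes. Over all tested genes, 56.9% had higher estimates, with a median of 0.10. This list as a whole was not examined with libraries left out. Gbp8 measured 12.3, 3.17 and 3.09 FPKM in the controls, against 13.8, 31.1 and 11.7 FPKM in KO, and Psmb8, a subunit of the immunoproteasome, 46.4, 18.7 and 11.8 FPKM and 42.4, 66.8 and 54.9 FPKM. Both were low in control 2 and 3, where T cell markers were low. Cd274, which encodes PD-L1, measured 32.1, 51.6 and 41.4 FPKM and 21.1, 20.6 and 8.18 FPKM. It was the 1 gene of this list whose groups did not overlap, with KO below, against 9.44% of all tested genes.

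Of 26 other type I induced genes, 18 had higher and 8 lower estimates, with a median of 0.45, and 0 passed. The share of higher estimates over all tested genes was 56.9%, and the median 0.10. Epsti1 measured 28.8, 8.45 and 9.27 FPKM in the controls, against 53.5, 61.6 and 42.5 FPKM in KO, a log2 difference of 1.89 (SE 0.47). Ifi203, of the family of interferon-inducible DNA sensors, measured 10.4, 4.03 and 4.29 FPKM and 23.6, 21.7 and 16.3 FPKM. Every KO library lay above every control for both genes, and in the list for 3 of 26 genes, against 6.70% of all tested genes, while 2 of 26 lay below, against 9.44%. The limma adjusted p was 0.417 for both. It was 0.0233 and 0.0319 without control 1, where 1.05% of all tested genes passed as higher and 1.55% as lower, and up to 0.997 over the alternatives. Ifitm3, which blocks viral entry, measured 51.9, 118 and 88.5 FPKM and 12.5, 15.3 and 39.8 FPKM, the opposite direction.

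Of 10 inducers and sensors tested, 7 had higher and 3 lower estimates, against 56.9% higher over all tested genes, and 0 passed. The 3 lower ones, Tlr7, Tbk1 and Myd88 (the last named after its values were seen), did not overlap between the groups, as was so with KO below control for 9.44% of all tested genes. Tlr7, an endosomal RNA sensor abundant in myeloid and B cells, measured 5.897, 8.497 and 10.85 FPKM in the controls, against 2.220, 2.302 and 2.201 FPKM in KO. Its log2 difference was -1.5 (SE 0.30, limma adjusted p = 0.417). The limma adjusted p was 0.0268 without KO 2, where 0.960% of all tested genes passed as lower in KO, and 0.801 without control 3. Summed monocyte and macrophage markers were 2056 to 4749 FPKM in the controls, against 408 to 2058 FPKM in KO, and their part in Tlr7 was not tested. Dhx58, the RIG-I relative LGP2, measured 3.56, 2.18 and 2.34 FPKM and 8.85, 3.31 and 6.71 FPKM, again highest in KO 1 and KO 3. Tbk1, the kinase that activates IRF3, measured 27.1 ± 4.04 and 19.3 ± 2.62 FPKM (SD, n = 3 each).

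Of 6 inhibitors tested, 5 had higher estimates and 1 a lower one, with a median of 0.32, and 0 passed. Among all tested genes, 56.9% of estimates were higher, with a median of 0.10. Socs1, an inhibitor of JAK kinases that interferon gamma induces, measured 67.4, 25.4 and 10.3 FPKM in the controls, against 53.7, 70.1 and 49.9 FPKM in KO. Irf2, a repressor of ISRE elements, measured 7.715 to 13.98 FPKM in the controls, against 12.96 to 17.12 FPKM in KO. Ptpn6, a phosphatase, measured 73.8 to 89.1 FPKM and 56.8 to 80.8 FPKM. Control 2 and 3 were again the lowest libraries for Socs1 and Irf2.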

How the data were processed

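RNA-seq of CD8+ T cells gave 6 libraries, 3 per group. The authors deposited FPKM, 1 value for each gene in each library; that the unit is FPKM was inferred from the values. Multiplied by GENCODE M21 exon length, they lay on a grid of whole reads (92.1% to 93.4% of values under 200 reads within 0.02 read), which gave approximate library totals and implied reads. Per the submitters' processing notes, HISAT2 2, Bowtie2 2.2.3, HTSeq 0.6.0 and mm8 were used, in roles not stated. Annotation, strand setting and the FPKM step are not given in the sources used here. Symbols came from GENCODE M21 (35313 of 35458 identifiers matched). Its build differs from mm8, so no coordinates are printed for the genes as counted. Promoters, and the intervals printed with them, are those of RefSeq on GRCm38.p6 and not on mm8.

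limma 3.58.1 (R 4.3.3) was run with an intensity trend on log2(FPKM + 1), so with a pseudocount of 1, comparing the genotypes without covariates. The low-value filter left 13956 genes, over all of which p-values were adjusted (Benjamini-Hochberg, 0.05). A run on simulated reads used 1 dispersion for all genes and no library differences within a group beyond depth. It therefore does not show how the procedure performs on these libraries. Detection limits, as 3 reads for 1 kb of exon, were 0.200 to 0.253 FPKM in the controls and KO 2, and 0.877 and 0.998 FPKM in KO 1 and KO 3, for counting error only. Exact permutation of 3 against 3 libraries cannot go below p = 0.1 and was not used. No library pair of a group matched within sampling noise. Alternatives were another pseudocount (0.1), dropping the filter, quantile normalization, a replicate block, leaving libraries out, and limma-voom on implied reads.

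Members, pathway lists (89 entries, 83 matched by symbol), 9 marker lists and tests were chosen with earlier results of these data known. Named genes were the members, Ifng, the receptor chains and, from each list, up to 3 genes by smallest p. A named gene of the lists is not reported here, though it counts in its list. Orders of libraries were picked out after their values were seen. Python 3.11.15, pandas 2.3.3 and matplotlib 3.10.9 made tables and plots.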

Additional observations from a re-analysis of the deposited data

How the results depend on the processing

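Libraries of the same number had correlations of their deviations from the group means of 0.11, 0.02 and 0.02, and not every library correlated best with its own number. These values do not show pairing by number, but with so few libraries that differ within groups they cannot exclude it. With the replicate block, 0 genes and 0 members passed, as without it. Under quantile normalization, limma-voom, a pseudocount of 0.1 and no filter on low values, 0 genes and 0 members passed too. With 1 library left out, 0 to 1821 genes and 0 to 3 members passed, the most without KO 2 (1821 genes), while 363 genes passed without control 1. Of 31 tested members, 12 kept their sign under every alternative, and 42 of 403 member values under alternatives had the opposite sign. The cause was not tested in any case.

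With control 2 and 3 left out, the median log2 difference was -0.09 for the type I antiviral genes and -0.68 for the GTPases. Signs turned for Ifit3 (-0.35), Ifit3b (-0.04), Isg15 (-0.13), Oas3 (-0.38), Irf7 (-0.63), Irf9 (-0.69), Bst2 (-0.43), Rtp4 (-0.62), Zbp1 (-0.17), Gbp2 (-0.76), Gbp3 (-0.24), Gbp7 (-0.64), Ifi47 (-0.64), Igtp (-0.78), Irgm1 (-0.68), Iigp1 (-0.89), Irf1 (-0.01), Jak1 (-0.09), Socs1 (-0.23), Ifnar1 (-0.35) and Ifngr2 (0.13). With KO 1 and 3 left out, the GTPase median was 2.38 and the type I antiviral minus GTPase level -1.93, and signs turned for Stat2 (0.33), Rsad2 (-0.17), Ifng (-0.45), Ifnar2 (0.30) and Ifngr1 (0.54). In both fits the lone library is assumed to vary like the other group. Quantile normalization turned Isg15 (-0.26), Irf9 (-0.09), Oas3 (-0.06), Rsad2 (-0.11), Irgm1 (-0.02) and Ifnar1 (-0.15), and limma-voom turned Stat2 (0.11) and Rsad2 (-0.08).

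Leaving out each library in turn, the median ranged from 0.36 to 0.88 for the type I antiviral genes and from -0.40 to 1.35 for the GTPases, and the level of the first minus the second from -0.66 to 0.78. Members whose sign turned were Isg15 (-0.20 to 0.37), Oas3 (-0.12 to 0.52), Oasl1 (-0.43 to 0.23), Irf9 (-0.20 to 0.61), Stat2 (-0.23 to 0.35), Rsad2 (-0.19 to 0.22), Bst2 (-0.02 to 0.73), Gbp2 (-0.40 to 1.35), Gbp7 (-0.24 to 0.89), Igtp (-0.41 to 1.58), Irgm1 (-0.49 to 0.80) and Iigp1 (-0.78 to 1.52). Receptor chains did so as well: Ifnar1 (-0.14 to 0.21), Ifnar2 (-0.37 to 0.02), Ifngr1 (-0.61 to 0.01) and Ifngr2 (-0.30 to 0.33). Depth limits KO 1 and KO 3 most, where Iigp1 had 22 and 15 implied reads and Isg15 11 and 24.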
